A study of Mus musculus with 8 samples.

Results

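mProx and MCT are the 2 mouse kidney tubular cell lines of a series on epithelial-mesenchymal transition, the change by which epithelial cells lose their contacts and take on fibroblast-like traits. The comparison of mProx with MCT takes in 4 of the 8 arrays of the series, which are the resting and the stimulated array of each line. It covers all 45037 probe sets that are not array controls. The labels call mProx proximal renal tubular epithelial cells and MCT renal tubular epithelial cells. Each line was grown for 24 h in serum-free modified K-1 medium with insulin and transferrin. Stimulated cells then received recombinant human TGF-β1 and recombinant human EGF, each at 3 ng/mL, during another 24 h, and resting cells received neither. The other 4 arrays are the same 2 states of the mammary lines EpH4 and NMuMG, and they serve here to estimate the spread.

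There is 1 array per line and state, and the labels do not say whether the 2 states of a line came from separate cultures. The p-values therefore measure how far a line difference varied between the 2 states, over all 4 lines, and not how far it varies between cultures. A line is also 1 source of cells, so nothing here separates a trait of proximal tubule from a trait of the cells behind 1 line. In pooled RNA, fewer cells of a type and less RNA per cell cannot be told apart.

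The proximal tubule is the first segment of the nephron after the glomerulus. Its cells carry a brush border and take back most of the filtered water, sugar, amino acids and protein through dedicated channels, transporters and endocytic receptors. The tubule arises from mesenchyme during development, under transcription factors such as Pax8 and Sall1.

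Median signals lay between 41.5 and 59.6 on the deposited scale, and levels below are log2 values after an offset of 10.6 and quantile normalization. A level under 5.27, the 40th percentile of all probe sets, is called dim. Array levels correlated across genes at 0.977 between the 2 states of mProx and at 0.976 between those of MCT, against 0.93 to 0.947 between arrays of the different lines. Genes are not independent replicates, so these are descriptions.

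A probe set was called where limma's Benjamini-Hochberg adjusted p was under 0.05 and the line difference was at least 2-fold the same way at rest and after stimulation. Of 27022 tested probe sets, 1038 were called higher in mProx, which is 3.84% of those tested, and 983 were called lower, which is 3.64%. The share called either way was 7.48%. By the same rule it was 16.6% for EpH4 against mProx, 14.3% for EpH4 against MCT, 20.8% for EpH4 against NMuMG, 15.5% for mProx against NMuMG and 14.7% for MCT against NMuMG. The kidney pair thus had the lowest share of the 6 pairs of lines, which share arrays and were not tested against each other. Read by gene, with 1 probe set each, 442 of 12570 genes were called higher in mProx, or 3.52%, and 561 lower, or 4.46%. The direction of this split depended on the scaling: among called probe sets 51.4% were higher in mProx after quantile normalization, against 74.3% with the signals as deposited, and among called genes 44.1% against 66.8%. The as-deposited scale moved the median of all tested probe sets to 0.23, against -0.01 after normalization. Differences below are therefore differences relative to the bulk of genes.

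About 1 in 2 of the resting differences held in both states. At rest 1989 genes differed at least 2-fold, after stimulation 1775 did, and 1033 did so the same way in both. Of the genes past 2-fold at rest, 51.9% were past it the same way after stimulation. Across all tested genes the resting and stimulated differences correlated at 0.758, a description over genes read from 4 arrays. An 8-fold difference in both states was seen for 44 genes higher in mProx and 63 lower. For 97 of the genes called higher, MCT was dim on both arrays, and for 123 of those called lower, mProx was.

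**Figure D1:**
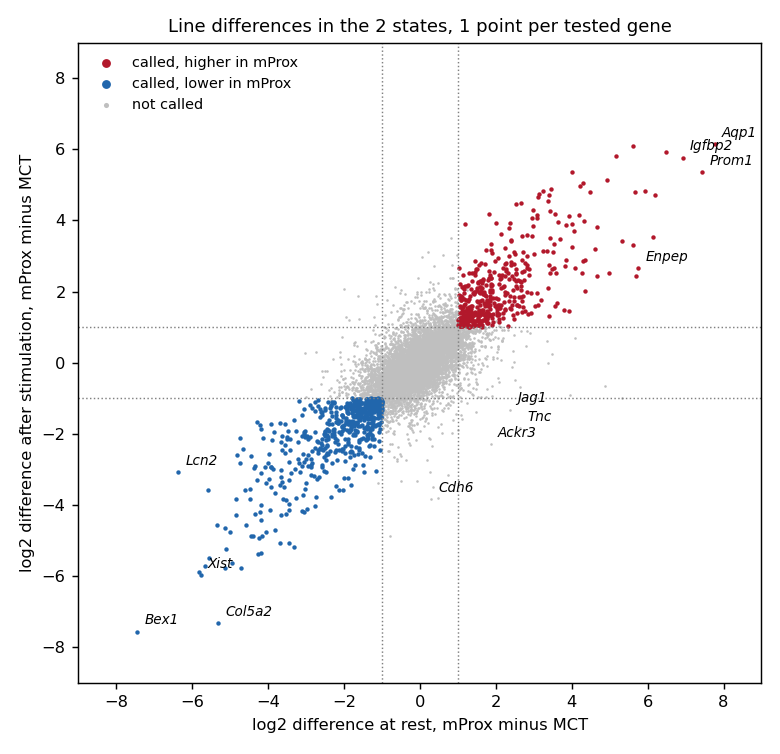
Each point is 1 of 12570 tested genes, with its log2 difference of mProx minus MCT at rest on the x axis and after stimulation on the y axis; dotted lines mark 2-fold. Red points are the 442 genes called higher in mProx and blue points the 561 called lower; Aqp1 and Bex1 lie at the 2 ends, and Tnc, Jag1, Ackr3 and Cdh6 lie where the sign turns between the states.

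With levels under 5.27 raised to 5.27, Aqp1 led the genes higher in mProx and Bex1 those lower. Aqp1 encodes the water channel of the proximal tubule and thin descending limb. Its level was 12.84 in resting and 11.23 in stimulated mProx, against 5.07 and 5.08 in MCT, where it was dim on both arrays. mProx was at least 109-fold higher (log2 difference 6.96, SE 0.48, limma adjusted p = 7.77e-05). Bex1, a small X-linked adaptor protein best known from neural cells, stood at 4.88 and 4.70 in mProx and 12.33 and 12.26 in MCT. It was at least 130-fold lower in mProx, with a log2 difference of -7.50 (SE 0.24, limma adjusted p = 2.66e-06). In both genes the lines lay far apart in either state, which their choice as the largest differences ensured.

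Promoters are shown for the 2 foremost protein-coding genes on each side that have a promoter entry, in the order of the leading genes, which raises levels under 5.27 to 5.27 before the smaller of the 2 states' differences is taken. The sequences are the 250 bases before the annotated start, read 5′ to 3′ on the gene's strand, from RefSeq on build GRCm38.p6. Capitals mark CG dinucleotides, the sites at which promoter DNA can be methylated. Methylation was not measured here. The Aqp1 window lies at chr6:55336049-55336298 on the + strand, that of Igfbp2 at chr1:72824230-72824479 on the + strand, that of Bex1 at chrX:136215514-136215763 on the - strand and that of Slc16a3 at chr11:120948817-120949066 on the + strand.
Aqp1: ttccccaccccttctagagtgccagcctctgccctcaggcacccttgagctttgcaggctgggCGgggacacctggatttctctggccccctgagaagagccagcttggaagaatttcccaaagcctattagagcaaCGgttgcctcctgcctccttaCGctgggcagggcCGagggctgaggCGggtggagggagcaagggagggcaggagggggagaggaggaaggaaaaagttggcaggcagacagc
Igfbp2: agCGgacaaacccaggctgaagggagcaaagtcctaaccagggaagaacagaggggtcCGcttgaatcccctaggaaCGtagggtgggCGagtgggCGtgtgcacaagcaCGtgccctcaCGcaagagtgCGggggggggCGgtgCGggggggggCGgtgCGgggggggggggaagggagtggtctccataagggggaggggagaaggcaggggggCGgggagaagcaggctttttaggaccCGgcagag
Bex1: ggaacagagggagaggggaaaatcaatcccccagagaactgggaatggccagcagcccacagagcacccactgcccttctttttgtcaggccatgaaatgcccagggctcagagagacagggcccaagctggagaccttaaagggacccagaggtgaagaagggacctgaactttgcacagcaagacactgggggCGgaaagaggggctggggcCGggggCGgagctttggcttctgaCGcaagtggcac
Slc16a3: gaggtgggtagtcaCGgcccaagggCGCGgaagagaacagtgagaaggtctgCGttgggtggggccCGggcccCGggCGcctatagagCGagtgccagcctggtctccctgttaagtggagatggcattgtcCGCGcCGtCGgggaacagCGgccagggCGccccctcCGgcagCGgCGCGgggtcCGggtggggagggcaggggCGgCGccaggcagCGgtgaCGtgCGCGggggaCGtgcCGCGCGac

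The 4 sequences run from poor to rich in CG. Aqp1 holds 5 CG sites, and 87.2% of the 10146 tested genes with a promoter entry hold at least as many. Bex1 holds 4, which 90.3% reach, Igfbp2 holds 14, which 57.9% reach, and Slc16a3 holds 29, which 12.3% reach. The median count was 14 over the 325 genes called higher in mProx with an entry, 13 over the 435 called lower, and 16 over all tested genes. These are counts of letters, given with no test.

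Behind Aqp1, the leading genes higher in mProx included secreted and membrane proteins. Igfbp2, which binds insulin-like growth factors, was at 11.86 and 11.47 in mProx and at 4.93 and 5.70 in MCT (log2 difference 6.35, SE 0.29, limma adjusted p = 1.18e-05). Prom1, the membrane protein known as CD133, was at 10.97 and 9.13 in mProx and dim at 3.53 and 3.77 in MCT, at least 27.5-fold higher. Ctsc, the lysosomal protease cathepsin C, was at 9.25 and 9.87 in mProx and at 3.64 and 3.79 in MCT. Ntn1, the guidance protein netrin-1, was at 9.53 and 9.54 in mProx and at 4.61 and 4.39 in MCT, and the LIM-domain protein gene Fhl1 at 11.10 and 11.48 in mProx and at 5.93 and 5.67 in MCT. The remaining leading genes were Gm6958, Col4a1, Col4a2, Cldn1, Col6a1, Poglut1, Rpgrip1, Krt8 and St6galnac2, with log2 differences of 3.85 to 6.20. Both mProx arrays lay above both MCT arrays in all 15, which the choice of genes by size of difference largely ensured.

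On the other side, Col5a2, a fibrillar collagen chain, was at 4.89 and 3.98 in mProx and at 10.22 and 11.30 in MCT. It was at least 45-fold lower in mProx (log2 difference -6.32, SE 0.51, limma adjusted p = 0.000173). Slc16a3, which exports lactate and is known as MCT4 (a transporter name unrelated to the cell line), was at 6.17 and 6.13 in mProx and at 10.57 and 11.01 in MCT. Ripk3, the kinase that triggers necroptosis, was dim at 4.54 and 3.79 in mProx and at 9.69 and 9.57 in MCT. Pdpn, the membrane glycoprotein podoplanin, was at 6.56 and 6.07 in mProx and at 10.79 and 10.996 in MCT. AI506816, Scarf2, Bhlhb9, Dsp, Shtn1, Syce2, Hebp2, Acot1, 2610524H06Rik and Xist completed the 15, with log2 differences of -5.87 to -4.21. All 30 leading genes kept their call in every refit in which they were tested, and Bhlhb9, Prom1, Ripk3 and St6galnac2 were tested in only 2 of the 4 refits without 1 kidney array.

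**Figure D2:**
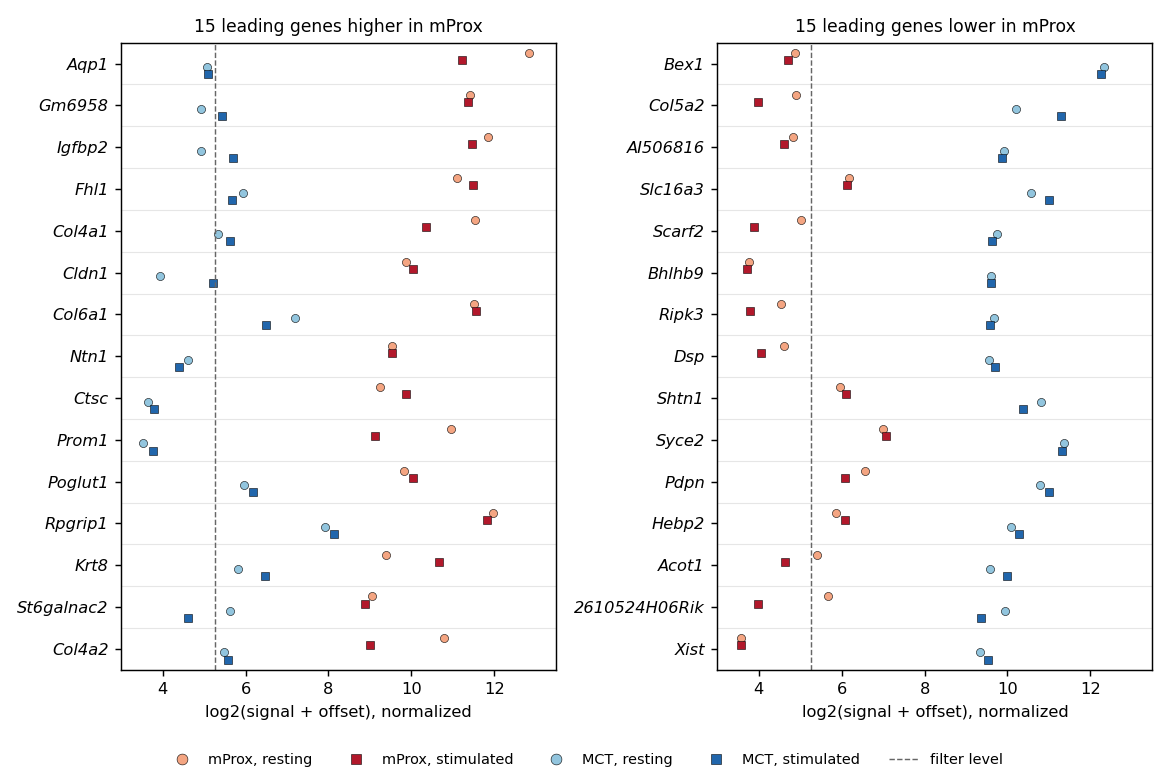
Normalized log2 levels of the 15 leading genes each way, with mProx in red and MCT in blue, circles for resting and squares for stimulated cells, and a dashed line at the filter level of 5.27. The lines lie apart in every gene, as the choice by size of difference largely ensured, and Aqp1 and Bex1 lead the panels.

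The mammary lines show for some of these genes which kidney line stood apart. Aqp1 was at 5.87 and 6.69 in EpH4 and at 5.57 and 4.87 in NMuMG, so mProx alone was high. Bex1 was at 4.43 and 4.48 in EpH4 and at 4.10 and 4.16 in NMuMG, so MCT alone was high. For Ctsc the mammary arrays lay between 9.84 and 10.04, near mProx, and MCT alone was dim. Dsp was at 8.48 to 10.03 and Cbr1 at 7.93 to 8.23 in the mammary arrays, so for these mProx alone was dim. Of the 442 genes called higher in mProx, mProx was at least 2-fold above all 4 mammary arrays in 88, MCT at least 2-fold below all 4 in 78, and neither held in 276. Of the 561 called lower, MCT was at least 2-fold above all 4 mammary arrays in 81 and mProx at least 2-fold below all 4 in 100.

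The proximal tubule label was checked with 69 marker genes, of which 66 were found and 29 tested. Called higher in mProx were 4, Aqp1, Enpep, Mme and Slc7a7, and 0 were called lower, against 3.52% and 4.46% of all tested genes. By limma 2 were lower at an unadjusted p under 0.05, 1 of them also at an adjusted p under 0.05. The list's median log2 difference was -0.04, against -0.06 over all tested genes. With the signals as deposited it was 0.19, against 0.23 over all tested probe sets. Of the 66 markers 18 were dim on all 4 arrays and 21 were above the filter level on all 4. The summed level of the list, on a log2 scale, was 14.41 and 13.52 in resting and stimulated mProx and 13.30 and 13.27 in MCT. Slc34a1, the phosphate transporter that defines the segment, was at 5.26 and 5.64 in mProx and at 5.51 and 5.73 in MCT, at the edge of the dim range in both lines. Hnf4a, a master factor of proximal tubule maturation, was at 5.29 and 5.51 in mProx and at 5.52 and 6.10 in MCT. Neither line held these 2 markers clearly above the filter level, and apart from the 4 genes no marker of the list was called for either line.

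The 3 other called markers were brush-border or basolateral proteins. Enpep, the aminopeptidase A of the brush border, was at 11.22 and 7.06 in mProx and at 5.47 and 4.39 in MCT, and Mme, the brush-border protease neprilysin, at 10.09 and 8.22 in mProx and at 8.14 and 5.66 in MCT. Resting mProx was the highest array for both. Their log2 differences were 4.21 (SE 0.79, limma adjusted p = 0.00821) and 2.25 (SE 0.48, limma adjusted p = 0.0136). Slc7a7, a basolateral cationic amino acid exchanger subunit, differed by 1.33 (SE 0.28, limma adjusted p = 0.0136). Leaving out 1 array ended each of these 3 calls: Enpep's without resting MCT (adjusted p = 0.0668), Mme's without resting mProx or stimulated MCT (up to 0.12), and Slc7a7's without either mProx array or resting MCT (up to 0.103). Lrp2, the endocytic receptor megalin, split by probe set. Its representative probe set differed by -0.11 (SE 0.31, limma adjusted p = 0.834), while 2 others were at 8.91 and 8.78 in resting mProx and between 6.14 and 7.01 on the other 3 arrays. Their differences did not pass the test (limma adjusted p = 0.125 and 0.355). Cubn, megalin's partner cubilin, was at 5.52 and 5.43 in mProx and at 6.33 and 6.04 in MCT and was not called. A second Cubn probe set was lower in mProx by -1.27 at rest and -0.97 after stimulation. It passed the test (limma adjusted p = 0.0132) but fell short of 2-fold after stimulation.

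Markers of other cell types were read in the same way. Over all tested genes 3.52% were called higher in mProx and 4.46% lower. Of 15 tested markers of the loop of Henle, distal tubule and collecting duct, 2 were called higher in mProx (Tfcp2l1 and Krt7) and 2 lower (Mal and Krt19). Tfcp2l1's call ended without stimulated mProx (adjusted p = 0.0535), and Krt19's is taken up with the keratins. Umod, the defining protein of the thick ascending limb, was dim on all 4 arrays with a highest level of 4.53. Of 10 tested podocyte markers 1 was called higher (Synpo) and 1 lower (Podxl), and Synpo's call ended without resting mProx or stimulated MCT (adjusted p up to 0.157). Of 7 tested endothelial and 12 tested leukocyte markers 0 were called either way, with 1 of each list at an unadjusted limma p under 0.05. Kdr, a receptor for VEGF, passed the adjusted p (0.0193) but not 2-fold in both states, at 5.52 and 5.19 in mProx and 6.44 and 6.77 in MCT. The lists had summed log2 levels of 9.58 and 9.64 in mProx and 9.47 and 9.74 in MCT for the endothelial list and of 11.40 and 10.11 in mProx and 10.14 and 10.04 in MCT for the leukocyte list. Pecam1 and Ptprc, which define these 2 cell types, were dim on all 4 arrays, at no more than 3.91 and 4.80. Among the leukocyte markers Csf1r, the receptor for CSF1 and IL-34, was at 10.91 and 7.63 in mProx and at 7.58 and 7.02 in MCT, high on 1 array and not called (limma adjusted p = 0.0969).

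Several fibroblast markers were higher in mProx. Of 14 tested, 4 were called higher and 0 lower, against 3.52% and 4.46% of all tested genes. By limma 2 were lower at an unadjusted p under 0.05, 1 of them also at an adjusted p under 0.05. The list's median log2 difference was 0.44, with the same sign under every scaling tried. Dcn, the collagen-binding proteoglycan decorin, was at 10.56 and 7.53 in mProx and at 4.41 and 4.0 in MCT, at least 13.7-fold higher (log2 difference 4.84, SE 0.66, limma adjusted p = 0.00203). Pdgfrb, a PDGF receptor of mesenchymal cells, was at 6.99 and 6.80 in mProx and dim at 3.47 and 3.45 in MCT. Ogn and Postn, which encode matrix proteins, differed by 3.37 and 2.03. The summed level of the list was 11.92 and 11.59 in mProx and 10.51 and 11.27 in MCT, and Col1a1, the main fibroblast collagen chain, was not called at 4.68 and 6.50 in mProx and 4.13 and 5.26 in MCT. The share of fibroblast-like cells in either line was not tested.

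**Figure D3:**
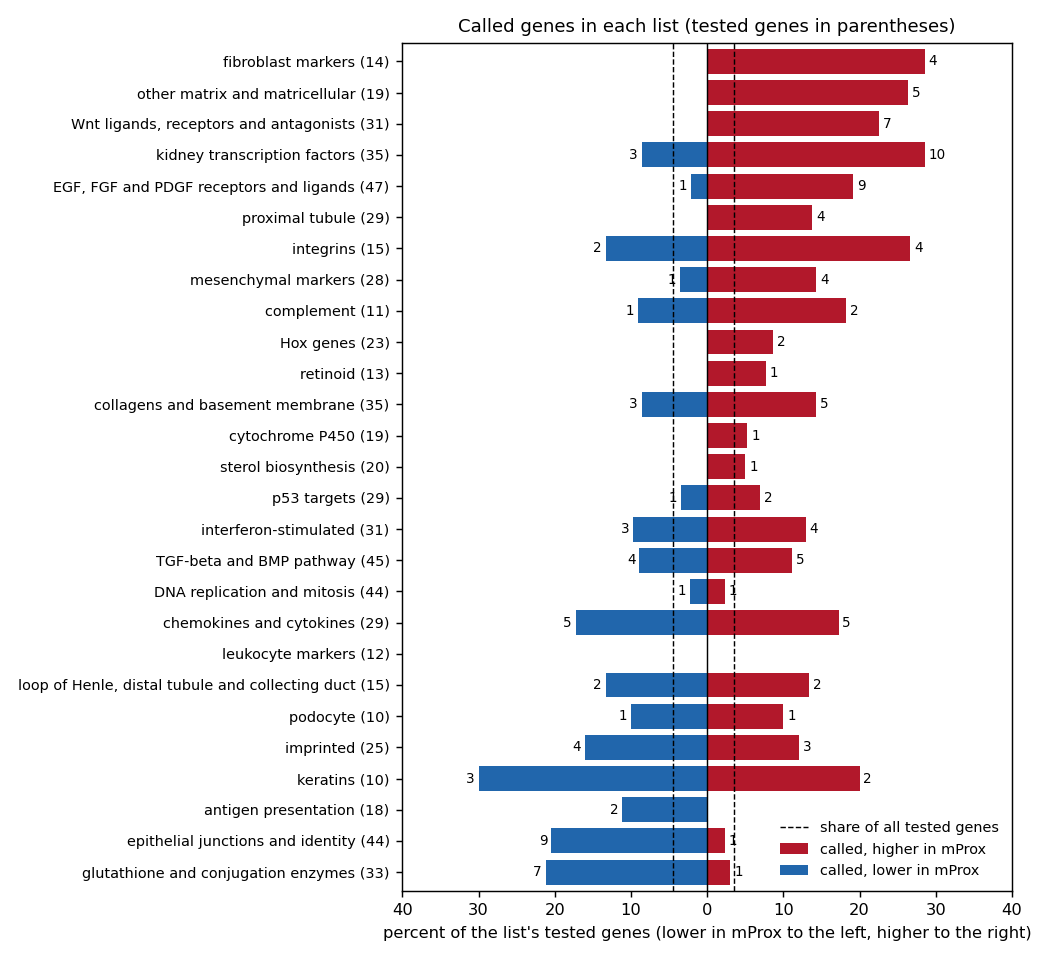
Percent of each list's tested genes that were called higher in mProx (red, right) or lower (blue, left), with the number called at the bar's end, the number tested in parentheses and dashed lines at the shares over all tested genes, 3.52% and 4.46%. Only lists with at least 10 tested genes are drawn; epithelial junctions and glutathione enzymes extend to the left, and Wnt, growth factor and kidney transcription factor genes to the right.

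Many transcription factors of kidney development and tubule identity were higher in mProx. Of 35 tested, 10 were called higher and 3 lower, against 3.52% and 4.46% of all tested genes, and the list's median log2 difference was 0.45, positive under every scaling tried. Foxc1, a forkhead factor of kidney and eye development, was at 11.69 and 10.98 in mProx and at 8.95 and 8.40 in MCT (log2 difference 2.66, SE 0.20, limma adjusted p = 0.000114). Emx2, a homeobox factor of the ureteric bud, was at 10.13 and 9.47 in mProx and at 6.61 and 6.35 in MCT (log2 difference 3.32, SE 0.33, limma adjusted p = 0.000481). Maf was at 8.70 and 8.36 in mProx and at 5.89 and 4.78 in MCT, and Sall1, needed for kidney outgrowth, at 8.43 and 8.45 in mProx and at 6.34 and 6.24 in MCT. These 4 genes were chosen as the leading calls of the list, and their calls held without any 1 of the kidney arrays.

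Factors lower in mProx were Esrra, Cebpd and Eya1. Esrra, a nuclear receptor of mitochondrial genes, was at 7.97 and 8.34 in mProx and at 9.44 and 9.73 in MCT (log2 difference -1.43, SE 0.19, limma adjusted p = 0.00175). Eya1, which acts in nephron progenitors, differed by -1.15, and Cebpd by -2.06. Both calls ended without 1 of 3 arrays, namely either mProx array or resting MCT (adjusted p up to 0.144 and 0.169), and Cebpd's difference was -1.03 without resting MCT. Pax8, the paired-box factor of kidney epithelium, was present in both lines, at 10.90 and 10.02 in mProx and at 9.66 and 8.99 in MCT. Its call of 1.14 (SE 0.26, limma adjusted p = 0.0178) ended without resting mProx or either MCT array (up to 0.159). Cdh16, the kidney-specific cadherin, was also high in both, at 12.23 and 10.04 in mProx and 10.80 and 9.48 in MCT, and its difference of 1.00 did not pass (SE 0.36, limma adjusted p = 0.0882).

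In the main fit Hox genes, which record the position of a tissue along the body axis, held calls for higher levels in mProx only. Of 23 tested, 2 were called higher in mProx and 0 lower, against 3.52% and 4.46% of all tested genes. By limma 8 were higher and 0 lower at an unadjusted p under 0.05, and 4 were higher at an adjusted p under 0.05. The list's median was 0.44. With no filter 2 of 33 were called higher and 1 lower, and in the fit on the 4 kidney arrays 2 of 25 and 1. Hoxd9 was at 7.85 and 7.79 in mProx and dim at 4.31 and 5.13 in MCT, at least 5.87-fold higher (log2 difference 3.10, SE 0.36, limma adjusted p = 0.000862). Hoxc10 differed by 1.72, a call that ended without resting mProx (adjusted p = 0.0514).

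A set of epithelial junction and identity genes was lower in mProx. Of 44 tested, 9 were called lower and 1 higher, against 4.46% and 3.52% of all tested genes. The list's median log2 difference was -0.45, negative under every scaling tried. Dsp, the desmosomal linker to keratin filaments, was dim at 4.61 and 4.06 in mProx and at 9.56 and 9.70 in MCT, at least 20.5-fold lower in mProx (log2 difference -5.29, SE 0.24, limma adjusted p = 1.16e-05). Dsg2, a desmosomal cadherin, was at 4.94 and 5.05 in mProx and at 8.11 and 8.12 in MCT, at least 7.22-fold lower in mProx. Of its 3 other tested probe sets 2 shared the direction. Levels of the plaque partners of Dsp and Dsg2 overlapped between the lines or lay close. Jup (plakoglobin) was at 10.05 and 9.88 in mProx and 9.81 and 10.15 in MCT. Pkp2 was at 9.15 and 9.13 in mProx and 9.27 and 9.18 in MCT. Neither was called, and both were named after their values were seen.

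Tight-junction and cadherin genes split between the lines. Cldn1, a claudin of tight epithelia, was at 9.86 and 10.03 in mProx and dim at 3.92 and 5.21 in MCT, at least 25.7-fold higher in mProx (log2 difference 5.38, SE 0.36, limma adjusted p = 7.45e-05). Lsr, a receptor of tricellular junctions, was at 6.0 and 5.69 in mProx and at 9.09 and 9.41 in MCT (log2 difference -3.41, SE 0.26, limma adjusted p = 0.000117). Cdh3, P-cadherin, was dim at 4.40 and 4.93 in mProx and at 8.58 and 8.03 in MCT. The other genes called lower in mProx, given to complete the list, were Ocln, Esrp1, Esrp2, Cldn23 and Epcam, with differences of -2.99 to -1.21. Epcam's second probe set did not share the direction. Cdh1, the E-cadherin that defines most epithelia, was dim on all 4 arrays, at 3.53 and 3.57 in mProx and at 3.87 and 4.47 in MCT. Cdh2, the N-cadherin that proximal tubule carries, was high on all 4, at 11.77 and 11.74 in mProx and at 10.86 and 11.24 in MCT, and its difference of 0.71 stayed under 2-fold.

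Keratins 8 and 18, obligate partners in the filaments of simple epithelia, went opposite ways. Krt8 was at 9.39 and 10.67 in mProx and at 5.82 and 6.48 in MCT (log2 difference 3.88, SE 0.21, limma adjusted p = 3.11e-05), and its 2 other probe sets shared the direction. Krt18 was at 9.01 and 10.34 in mProx and at 11.60 and 12.58 in MCT (log2 difference -2.42, SE 0.23, limma adjusted p = 0.000341). Each gene's lines lay apart in both states, and in the mammary lines both genes were high, at 11.96 to 12.63 for Krt8 and 12.41 to 13.14 for Krt18. Krt7 was at 6.37 and 6.76 in mProx and dim at 4.79 and 4.64 in MCT, at least 2.47-fold higher, and its call ended at an offset of 50 (log2 difference 1.04). Krt19 and Krt5 were lower in mProx, with log2 differences of -1.87 and -1.04, but Krt19's call ended without resting mProx (difference -0.82, adjusted p = 0.232) or either MCT array, and Krt5's without any 1 of the 4 (up to 0.179).

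Basement membrane and collagen genes separated the lines by chain. Of 35 tested, 5 were called higher in mProx and 3 lower, against 3.52% and 4.46% of all tested genes. The list median was 0.04 and fell to -0.09 without resting mProx. Col4a1 and Col4a2, which form the main network of basement membranes together, were both high in mProx, at 11.53 and 10.34 and at 10.80 and 9.0, against 5.34 and 5.63 and 5.48 and 5.57 in MCT. Their differences were 5.45 (SE 0.32, limma adjusted p = 4.4e-05) and 4.37 (SE 0.50, limma adjusted p = 0.000859). The 2 genes lie head to head, with annotated starts 21 bases apart on opposite strands, and together with Irs2 and Rab20 they form the longest run of neighbouring genes called the same way. NMuMG also held Col4a1, at 11.79 and 11.86, and EpH4 did not, at 5.63 in both states.

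The microfibrillar collagen VI chains were higher in mProx as well. Col6a1 was at 11.51 and 11.55 in mProx and at 7.20 and 6.49 in MCT, and Col6a2 at 9.42 and 9.69 in mProx and at 6.88 and 7.06 in MCT. Col5a2, Col4a6 and Lamb3 were lower in mProx. Col4a6 differed by -2.98 (SE 0.54, limma adjusted p = 0.00685), a call that ended without the resting array of mProx or of MCT (up to 0.0527). Lamb3, a chain of laminin-332, was at 4.71 and 6.77 in mProx and at 6.57 and 8.41 in MCT, lower in mProx in each state, and its call ended without the treatment block (adjusted p = 0.173). Itgb4, the integrin chain that binds laminin-332 at hemidesmosomes, was dim at 3.82 and 3.71 in mProx and at 7.35 and 7.95 in MCT (log2 difference -3.89, SE 0.33, limma adjusted p = 0.000226).

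Of 15 tested integrins 4 were called higher in mProx and 2 lower, against 3.52% and 4.46% of all tested genes. Itgb5, part of the vitronectin receptor, differed by 1.40 and Itga7, a laminin receptor chain, by 1.65. Itga1's call ended without stimulated MCT (adjusted p = 0.0748), Itgb8's without either mProx array or stimulated MCT (up to 0.0767), and Itgb7's without any 1 of the 4 arrays (up to 0.112). Of 19 other matrix genes 5 were called higher in mProx and 0 lower, with a median of 0.57. By limma 2 were lower at an unadjusted p under 0.05, 1 of them also at an adjusted p under 0.05. Thbs1, the matricellular protein thrombospondin-1, was at 11.48 and 10.37 in mProx and at 7.38 and 7.70 in MCT (log2 difference 3.38, SE 0.30, limma adjusted p = 0.00028), and Mgp, an inhibitor of calcification, at 8.46 and 8.53 in mProx and at 5.94 and 5.49 in MCT.

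**Figure D4:**
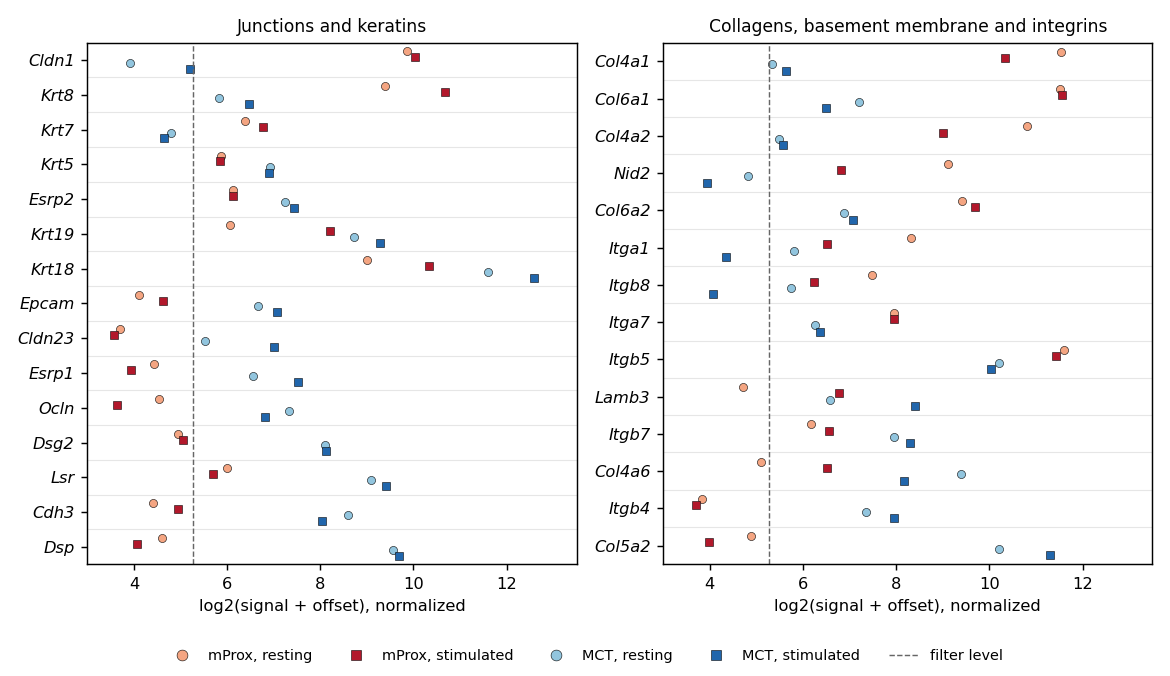
Normalized log2 levels of every called member of the junction and keratin lists (left) and of the collagen, basement membrane and integrin lists (right), ordered by the difference of mProx minus MCT, with mProx in red, MCT in blue, circles for resting and squares for stimulated cells. Cldn1, Krt8, Col4a1 and Col6a1 lie high in mProx, and Dsp, Cdh3, Itgb4 and Col5a2 lie high in MCT.

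General mesenchymal markers held calls both ways. Of 28 tested, 4 were called higher in mProx (Wnt5a, S100a4, Sparc and Snai2) and 1 lower (Tpm2). Over all tested genes 3.52% were called higher and 4.46% lower. The list's median was 0.45, positive under every scaling tried. Of Sparc's 2 other tested probe sets 1 shared the direction. S100a4, a calcium-binding protein used as a fibroblast marker, was at 11.95 and 12.71 in mProx and at 10.06 and 9.38 in MCT. Tpm2, a tropomyosin of muscle and stress fibres, was at 6.48 and 6.40 in mProx and at 10.06 and 9.89 in MCT (log2 difference -3.54, SE 0.21, limma adjusted p = 4.4e-05). Snai2's call of 1.86 ended without stimulated mProx or either MCT array (adjusted p up to 0.0879). Vim, the mesenchymal filament protein, was at 13.20 and 13.32 in mProx and at 13.26 and 13.36 in MCT, a difference of -0.05 (SE 0.10, limma adjusted p = 0.779). Fn1, fibronectin, was not called either, at 11.60 and 13.03 in mProx and 10.98 and 13.12 in MCT.

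Wnt pathway genes were called in 1 direction. Wnt proteins signal through Frizzled and Lrp receptors to β-catenin or to cell polarity. Of 31 tested genes of the pathway 7 were called higher in mProx and 0 lower. Over all tested genes 3.52% were called higher and 4.46% lower. By limma 2 of the 31 were lower at an unadjusted p under 0.05, 1 of them also at an adjusted p under 0.05. The list's median was 0.35, positive under every scaling tried. Among ligands, Wnt5a was at 7.44 and 7.63 in mProx and dim at 3.8 and 3.66 in MCT, at least 4.82-fold higher (log2 difference 3.8, SE 0.37, limma adjusted p = 0.000397), and Wnt10a was at 8.26 and 8.40 in mProx and at 6.41 and 5.92 in MCT. Dkk3, a secreted Dickkopf protein, was at 9.44 and 9.92 in mProx and at 6.45 and 6.08 in MCT, and Axin2, a target and inhibitor of the β-catenin branch, at 7.52 and 7.72 in mProx and at 5.97 and 5.74 in MCT. The receptors Fzd2, Fzd7 and Lrp6, given to complete the list, differed by 1.26, 1.33 and 1.17.

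Growth factor and receptor genes of the EGF, FGF and PDGF families and their relatives had a median of 0.10 (-0.03 without resting MCT). Against 3.52% higher and 4.46% lower over all tested genes, 1 of 47 was called lower in mProx and 9 higher. Beside Igfbp2 and Pdgfrb these were led by the ligand Pdgfd, at 8.19 and 8.81 in mProx and 5.72 and 5.70 in MCT (log2 difference 2.79, SE 0.27, limma adjusted p = 0.000383), and by the receptor Fgfr2, at 9.17 and 7.69 in mProx and 6.71 and 5.95 in MCT. Gas6, the ligand of the Axl family, was lower in mProx, at 5.38 and 5.40, against 7.83 and 7.73 in MCT. Egfr, the receptor for the EGF given to stimulated cells, was at 9.59 and 9.77 in mProx and at 9.06 and 9.01 in MCT, and the TGF-β receptor genes Tgfbr1 and Tgfbr2 at 9.61 and 9.26 and at 11.99 and 12.07 in mProx, against 9.39 and 9.64 and 11.57 and 10.77 in MCT. Named here after their values were seen, these 3 receptors of the stimulus were not called between the lines.

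In the TGF-β and BMP pathway 5 of 45 tested genes were called higher in mProx and 4 lower. Over all tested genes 3.52% were called higher and 4.46% lower, and the list's median was 0.23. Bmp4, a ligand of kidney patterning, was at 9.76 and 9.46 in mProx and at 7.35 and 6.0 in MCT (log2 difference 2.93, SE 0.36, limma adjusted p = 0.00126). Bmp7, the BMP of nephron progenitors, ran the other way, with a difference of -2.27, and Bmp6 was higher in mProx by 2.37. Both calls ended without either MCT array. Bmp6's also ended without resting mProx, at a difference of 1.43 (adjusted p = 0.0935), and Bmp7's without stimulated mProx, at -1.46 (adjusted p = 0.11). Fstl1, a secreted BMP-binding protein, was at 11.76 and 11.56 in mProx and at 9.09 and 9.28 in MCT, and Inhbb, the activin βB chain, at 6.98 and 7.97 in mProx and at 5.17 and 3.79 in MCT, though its other probe set did not share the direction. Ltbp4, which stores latent TGF-β in the matrix, was lower in mProx, at 6.90 and 7.13, against 8.79 and 8.86 in MCT. Calls for Fstl3 and Inha ended without any 1 of the 4 arrays (adjusted p up to 0.131 and 0.156, both without stimulated MCT).

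Glutathione and conjugation enzymes, which detoxify reactive compounds, were called lower in mProx in 7 of 33 tested cases and higher in 1. Over all tested genes 4.46% were called lower and 3.52% higher. The list's median was -0.19, and 0.03 with the signals as deposited. Relative to the median of all tested probe sets it was -0.18 and -0.20. Cbr1, a carbonyl reductase, was dim at 3.77 and 3.68 in mProx and at 9.32 and 9.18 in MCT, at least 15.8-fold lower in mProx (log2 difference -5.53, SE 0.20, limma adjusted p = 5.38e-06). Its neighbour Cbr3 was at 7.87 and 7.26 in mProx and at 9.61 and 9.25 in MCT. Gsta4, the glutathione transferase of lipid aldehydes, was at 6.65 and 6.21 in mProx and at 10.71 and 9.59 in MCT (log2 difference -3.72, SE 0.24, limma adjusted p = 6.22e-05), and the microsomal transferase Mgst1 was dim at 4.73 and 4.99 in mProx and at 8.24 and 7.12 in MCT. The 1 gene called higher, the sulfotransferase Sult1c2, was at 10.97 and 6.83 in mProx and at 7.78 and 5.06 in MCT, and its call ended without resting mProx or either MCT array (adjusted p up to 0.132).

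Chemokine and cytokine genes were called equally often each way, 5 higher and 5 lower in mProx of 29 tested. Over all tested genes 3.52% were called higher and 4.46% lower. The list's median was -0.17, and 0.08 with the signals as deposited. Relative to the median of all tested probe sets it was -0.16 and -0.15, and 0.09 with the filter at the 60th percentile. Cxcl1, a chemokine that attracts neutrophils, was at 7.62 and 7.02 in mProx and at 11.48 and 10.02 in MCT (log2 difference -3.43, SE 0.29, limma adjusted p = 0.000214), and Lcn2, the tubular injury protein NGAL, was dim at 4.06 and 4.17 in mProx and at 10.42 and 7.24 in MCT. Cxcl5 and Ccl20 lay the same way, but Cxcl5's call ended without resting mProx (adjusted p = 0.0724; without resting MCT it held at a difference of -1.77), and Ccl20's without resting mProx or either MCT array (up to 0.235). mProx held Cxcl12, the ligand of Cxcr4, at 10.04 and 7.18, against a dim 4.35 and 4.75 in MCT (log2 difference 4.06, SE 0.70, limma adjusted p = 0.0057; 2.46 without resting mProx). Il18, an inflammasome cytokine, was at 7.82 and 7.89 in mProx and at 6.15 and 5.53 in MCT, and Il34's call of 1.96 ended without resting mProx or stimulated MCT (up to 0.0585).

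Interferon-stimulated genes were called both ways. Of 31 tested, 4 were called higher in mProx and 3 lower, against 3.52% and 4.46% of all tested genes. The list's median was 0.33. Ifit2 and Ifit3, which block translation of foreign RNA and lie in a cluster on chromosome 19, were higher in mProx: Ifit3 at 11.38 and 8.07 in mProx and 6.41 and 5.54 in MCT (log2 difference 3.75, SE 0.49, limma adjusted p = 0.00173), and Ifit2 at 11.38 and 9.97 in mProx and 9.25 and 8.34 in MCT. Oas2 and Oasl1, of the family that senses double-stranded RNA, were lower: Oas2 was dim at 4.43 and 4.45 in mProx and at 6.73 and 6.33 in MCT, and Oasl1 was at 6.45 and 6.57 in mProx and 8.09 and 8.34 in MCT. Ifit1 differed by 1.71 and Oas1a by -1.65. Ifit1's call ended without stimulated mProx or either MCT array (adjusted p up to 0.125), Oas1a's without resting mProx or either MCT array (up to 0.159), and that of Cxcl10, an interferon-induced chemokine higher in mProx by 1.94, without any 1 of the 4 (up to 0.0628). Of 18 antigen presentation genes 4 were higher by limma at an unadjusted p under 0.05, and 3 of these also at an adjusted p under 0.05. The 3 did not reach 2-fold in both states. Called were 0 higher and 2 lower, Tap2 and H2-DMa. Both calls ended without resting mProx or resting MCT, and Tap2's also without stimulated MCT (adjusted p up to 0.109 and 0.0888). H2-DMa differed by -1.25 without resting mProx (adjusted p = 0.0712).

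Genes of complement, of cell division and of metabolism held few calls each. Over all tested genes 3.52% were called higher in mProx and 4.46% lower, shares that the short complement list exceeded. In complement 2 of 11 tested were called higher in mProx and 1 lower, led by C1s1, a protease of the first component, at 9.63 and 6.59 in mProx and 6.16 and 3.96 in MCT, whose call ended without the treatment block (adjusted p = 0.104). C1ra's call ended without resting mProx or either MCT array (adjusted p up to 0.199), and Cd59a, a brake on the terminal pathway, differed by -1.37. DNA replication and mitosis genes had 1 of 44 called each way, Kif11 higher and Ccne1 lower. One member each was called, in every case higher in mProx, among 20 sterol biosynthesis genes (Lss), 19 cytochromes P450 (Cyp39a1, by 2.52) and 13 retinoid genes (Dhrs3, by 3.57). For Lss, 1 of 2 other tested probe sets shared the direction. Without the fold rule 7 of the 20 sterol genes were higher and 1 lower by limma at an adjusted p under 0.05. For the 13 retinoid genes these counts were 4 and 0, and over all 12570 tested genes 1213 and 1564. Of 29 p53 targets 5 had a positive difference and the median was -0.44 (-0.19 with the signals as deposited), with 2 higher and 8 lower at an unadjusted p under 0.05. That median was 0.02 without resting mProx, and without stimulated mProx it was -0.91 with 8 called lower. Called were Sesn1 and Btg2, higher, and Aen, lower, and Btg2's call ended without stimulated mProx or resting MCT (up to 0.143). Btg2's other tested probe set did not share the direction. Cdkn2a, the locus of the p16 and Arf cell-cycle inhibitors, was high in both lines, at 10.88 and 11.32 in mProx and at 11.02 and 11.22 in MCT, and was not called (difference -0.02, SE 0.17, limma adjusted p = 0.942).

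The lines differed in sex-chromosome transcripts. Xist, the RNA that silences an X chromosome in female cells, was dim at 3.56 and 3.58 in mProx and at 9.33 and 9.54 in MCT, at least 18.0-fold lower in mProx (log2 difference -5.87, SE 0.22, limma adjusted p = 5.4e-06), and its 2 other probe sets shared the direction. The Y-linked gene Eif2s3y was at 7.06 and 7.0 in mProx and dim at 4.64 and 3.48 in MCT, and Kdm5d was at 6.13 and 6.30 in mProx and dim at 5.03 and 4.65 in MCT. The 2 Y-linked genes were not tested in the main fit, as their mean over all arrays was under the filter level. With no filter, 2 of 11 genes of the sex-chromosome list were called higher in mProx and 1 lower. In the main fit 0 of 5 were called higher and 1 lower. Among 380 tested X-linked genes 27 were called higher in mProx and 15 lower, or 11.1% in all, against 7.90% of 12124 autosomal genes. Their median log2 difference was 0.14, against -0.06 on the autosomes. The X chromosome lay within the range of single autosomes. The share called was 12.2% on chromosome 19, and the median was 0.18 on chromosome 17.

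Some X-linked genes of the Bex1 region were called in opposite directions. Armcx3, a mitochondrial armadillo-repeat protein, was at 8.37 and 8.09 in mProx and dim at 4.44 and 3.95 in MCT, and Armcx1 at 6.47 and 6.52 in mProx and dim at 3.45 and 3.47 in MCT. Bhlhb9, Tceal8, Tceal1 and Bex1, of the same region, were called lower in mProx, with log2 differences of -5.86, -2.58, -2.72 and -7.50. Bex3 and Tceal9 were high in both lines and not called. The Armcx, Tceal and Bex3 genes were named after their values were seen.

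Imprinted genes, expressed from 1 parental allele, were called higher in mProx in 3 of 25 cases and lower in 4. Over all tested genes the shares were 3.52% and 4.46%. Mest was at 7.17 and 6.78 in mProx and at 10.03 and 9.66 in MCT (log2 difference -2.87, SE 0.25, limma adjusted p = 0.000255), and Phlda2 was dim at 4.05 and 4.71 in mProx and at 7.15 and 6.77 in MCT. Sgce, Grb10 and Dcn were higher in mProx. Grb10's call ended without either resting array (adjusted p up to 0.0642), and that of Kcnq1ot1, lower in mProx, without any 1 of the 4 arrays (up to 0.201).

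Over whole chromosomes the line differences were small and alike in both states. Chromosome 7 had the lowest median, -0.33 over 959 tested genes, with 14 called higher in mProx and 66 lower. Over all chromosomes 442 of 12504 genes were called higher and 558 lower. Chromosome 14 had 36 called higher and 8 lower among 427, with a median of 0.16, and chromosome 4 had 11 called higher and 52 lower among 777. Genes are not replicates, so these medians are descriptions of the 4 arrays.

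**Figure D5:**
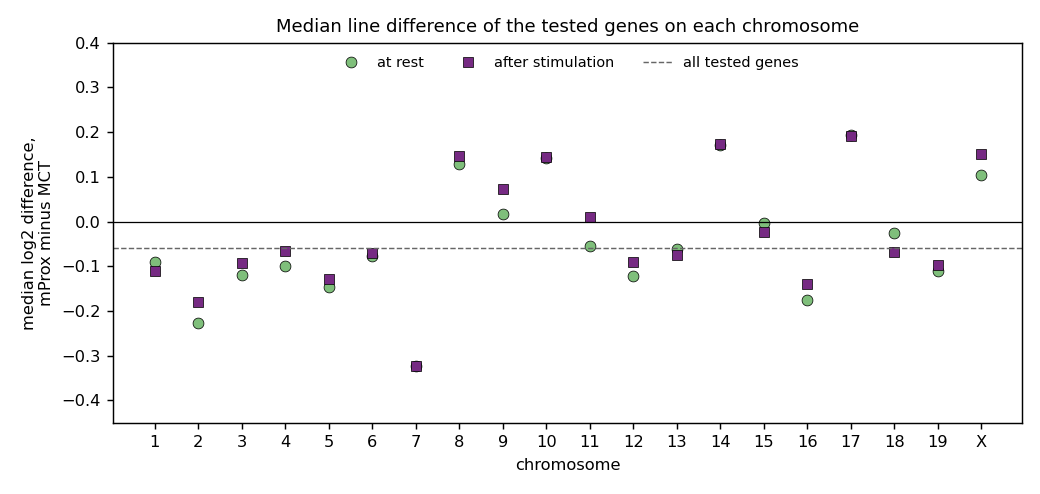
Median log2 difference of mProx minus MCT over the tested genes of each chromosome, at rest (circles) and after stimulation (squares), with a dashed line at the median of all tested genes with a chromosome. The 2 states lie close together on each chromosome; chromosome 7 is lowest, at -0.32 in both, and chromosome 17 highest, at 0.19 in both.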

How the data were processed

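Labelled total RNA of 8 samples was hybridised to single-colour Affymetrix mouse arrays. The deposited values are intensities on a linear scale, 1 per probe set and array, made by the authors with MAS5 per the submitters' processing notes. The sources used here do not give the MAS5 version or its scaling target, and no detection calls entered. The number of value columns left unused was 0.

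After removal of 64 control probe sets, 10.6 was added to each signal (an offset set at the 25th percentile of signals above 0), and log2 values were quantile-normalized over the 8 arrays because array medians differed by 0.43, above a limit of 0.3. The offset understates changes of dim genes. Probe sets with a mean level of at least 5.27, the 40th percentile, were tested: 27022 of 45037. Of all probe sets 34945 carry 1 gene symbol, 932 several and 9160 none, in the platform's annotation. Of the single symbols 34741 matched the RefSeq gene table of GRCm38.p6. For each gene the probe set of highest mean level stands, preferring those specific to 1 transcript. The array annotation comes with no stated build, so no coordinates were taken from it.

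limma 3.58.1 in R 4.3.3 was fitted to all 8 arrays with line and treatment state (3 residual degrees of freedom, intensity trend), contrast mProx minus MCT, with p-values adjusted over all tested probe sets. The 2 states of a line serve as its pair. With 1 array per line and state, the number of arrays limits the precision. "At least" folds set the brighter line's mean against the filter level. The fit was tested on simulated data. Named genes are the 15 leading called genes each way by the smaller of the 2 states' differences after levels under the filter level are raised to it, up to 4 called members of each of 29 lists each way, 20 fixed markers, and up to 6 genes that turned between states. Of the markers, 3 had no probe set under their symbol and were not analysed here. Members and lists were chosen with earlier results of these data known. Alternatives covered scaling, offset, filter, fold rule, block, trend, samples in the fit and leaving out each array.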

Additional observations from a re-analysis of the deposited data

Results flagged for a closer look

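Some genes differed one way at rest and the other way after stimulation. Each value is 1 array against 1, and the change between the states was not tested. Tnc, the matrix protein tenascin-C, was at 9.13 and 8.25 in resting and stimulated mProx and at 6.49 and 10.07 in MCT, so the mProx minus MCT difference was 2.64 at rest and -1.83 after stimulation, a change of -4.47. Ackr3, a scavenging chemokine receptor, changed by -4.15, from levels of 7.49 and 6.12 in mProx and 5.62 and 8.40 in MCT. Jag1, a Notch ligand, was at 9.06 and 8.92 in mProx and at 6.68 and 10.24 in MCT, a change of -3.705. In these 3 genes the stimulated MCT array was the highest of the 4. Cdh6, a cadherin of the proximal tubule, lay close in resting cells, at 9.20 in mProx and 8.90 in MCT, and apart in stimulated cells, at 7.37 in mProx and 11.21 in MCT, a change of -4.13. Npnt, the basement membrane protein nephronectin, changed by -2.84 and Cep126 by -2.54, and Slamf9 ran the other way at 2.26. Of Npnt's 3 other tested probe sets 1 shared its directions in both states, and Cep126's 1 other probe set did not. Jag1's 2 others and Cdh6's 1 other did share theirs. Over all tested genes 19 were at least 2-fold apart in opposite directions, 10 higher in mProx at rest and 9 lower. By their representative probe sets Fn1 (-0.71) and Cdkn2a (0.235) also changed sign, with differences under 2-fold in both states. Fn1's other tested probe set differed by 1.46 at rest and by -1.11 after stimulation, past 2-fold in opposite directions.

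Of 5 Y-linked genes left untested in the main fit because of low mean levels, 3 were above the filter level in mProx and dim in MCT. Usp9y (4.71 and 4.76 in mProx, 4.84 and 3.75 in MCT) and Zfy2 (5.19 and 4.17 in mProx, 3.68 and 4.93 in MCT) were dim in both lines. Eif2s3y averaged 7.03 in mProx, Kdm5d 6.22 and Uty 5.93, over 2 arrays each. Uty was at 5.8 and 6.07 in mProx and at 5.01 and 4.49 in MCT.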

How the results depend on the processing

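With the signals as deposited 1899 probe sets and 770 genes were called higher in mProx, since that scale lifts mProx over MCT. An offset of 50 left 637 probe sets called lower. A filter at the 60th percentile gave 640 probe sets higher and 616 lower, with fewer tested. Without the fold rule 2732 probe sets were called higher and 2641 lower, and 1213 genes higher and 1564 lower. A 4-fold rule gave 240 and 269 probe sets and 124 and 167 genes. Without 1 kidney array, the 2-fold rule was applied only in the state that kept both lines, a laxer rule than in the main fit. The same goes for every call said above to hold or end without 1 array. Leaving out each kidney array in turn gave 841 to 1233 probe sets higher and 904 to 1313 lower, and 382 to 561 genes higher and 542 to 758 lower, where the spread of the lone array was taken from the other lines. Of 127 named called genes, 88 were tested and called without each of the 4 kidney arrays, 6 stayed called in the fewer refits that tested them, and 33 lost the call at least once. Over 17 alternatives their 2100 values held direction and call in 1947 cases, lost the call in 153 and changed sign in 0. Without 1 kidney array the fold moved by over 1.5 times for 30 genes and the log2 difference for 7. The fit pairs the lines by treatment state. Without this block 18 of the 127 genes lost the call, among them Sult1c2, C1ra, Lamb3, C1s1, Mme and Enpep, and none of the 30 leading genes did. The 127 genes were chosen among called genes, and the 30 leading ones by size of difference. That choice made kept signs, and kept calls of the leading genes, likely in advance. A pairing by replicate number was not possible, since each line and state has 1 array. Depth has no counterpart here, and 18015 dim probe sets were not tested.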

Other observations

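The 18015 probe sets left untested for low mean levels were compared with levels under the filter level raised to it. Of these, 57 were at least 2-fold higher in mProx than in MCT in both states, and 46 at least 2-fold lower. Of the 1003 called genes, 425 had another tested probe set, and 562 of these 666 probe sets, or 84.4%, shared the direction of the call.

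Read in windows of 30 neighbouring tested genes, 803 in all, the lowest median difference of mProx minus MCT was -0.64, on chromosome 19 between Sfxn2 and Gpam, with 1 gene called higher in mProx and 7 lower. The highest was 0.71, on the X chromosome between Zbtb33 and Phf6, with 8 called higher and 0 lower. In the X window the median of MCT minus the mammary mean was -0.68 and that of mProx minus the mammary mean -0.18. In the chromosome 19 window the mProx median against the mammary mean was -0.36 and the MCT median 0.17. The windows overlap and were chosen for their size, so they carry no test.

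Runs of at least 3 neighbouring tested genes called the same way numbered 9. Besides the Col4a1 and Ifit runs they included Kif1a, Mab21l4 and Sned1, lower in mProx, and Pqbp1, Timm17b and Hdac6, higher in mProx.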
